A study of Mus musculus with 29 samples.

Results

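TdTomato-marked podocytes taken 4 days after an immunotoxin were compared with TdTomato-marked podocytes taken 1 day after it. The members were chosen by their labels alone: 4 arrays of day 4 and 4 arrays of day 1, which made 8 of the 29 arrays of the series. All animals were 8 week old male C57BL/6J mice of the Pod-hCD25T/G line that had lost one kidney and had then been given 25 ng LMB2 per g body weight; the day 4 mice were MC151, MC692, MC822 and MC823, and the day 1 mice were MC125, MC541, MC542 and MC831. Podocytes were sorted on a FACSAria cell sorter, and the total RNA of 1 mouse and 1 colour was hybridised to each 1-colour Agilent mouse array. EGFP-marked podocytes of the same animals served for comparison, with 4 arrays on day 4 and 3 on day 1, and so did TdTomato-marked podocytes of day 0 (4 arrays) and day 7 (2 arrays). MC831 had no EGFP array among these. The labels give day 0 the same treatment and do not say whether its mice had received LMB2 when the cells were taken. Different mice were used on each day, so the days are not paired. The day 7 means are a description of 2 arrays; for 1 of them, MC221, the authors' series matrix column lay closer to the scanner file of the other day 7 mouse than to its own (r = 0.995 against 0.9946).

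Podocytes are the epithelial cells whose interlocking foot processes, joined by the slit diaphragm, cover the outer face of the glomerular capillaries, and they are held to divide little or not at all in the adult. LMB2 is an antibody fragment against human CD25 fused to a part of Pseudomonas exotoxin A; once inside a cell, the toxin modifies the diphthamide residue of elongation factor EF2 and so stops protein synthesis. In this mouse, as the model is known, the TdTomato-marked podocytes carry human CD25 and are the toxin's direct targets, whereas the EGFP-marked podocytes beside them lack it. The labels do not name the promoter that drives either mark, and the other cells of the host's kidney carry their own genes.

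Levels are given throughout as log2 of the background-corrected signal minus log2 of the 75th percentile of that array, so that 0 stands for a gene as bright as the upper quartile of its array. A difference is the mean of the 4 day 4 arrays minus the mean of the 4 day 1 arrays, with the standard error and Benjamini-Hochberg adjusted p of a limma fit over all 29 arrays, and a gene was called at an adjusted p under 0.05. Values of 1 gene are listed in the order MC151, MC692, MC822, MC823 for day 4 and MC125, MC541, MC542, MC831 for day 1. A level belongs to 1 probe and is never set against that of another gene. In sorted bulk RNA, a change in the number of cells of a kind and a change in RNA per cell cannot be told apart.

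The sorted cells carried podocyte transcripts on both days. Nphs1 (nephrin), Podxl, Synpo and Wt1 were well above background on all 8 arrays. Between 52.7% and 65.5% of probes were well above background on the day 4 arrays, against 54.3% to 64.8% on the day 1 arrays, and no probe was saturated. Across genes, pairs of day 4 arrays correlated at 0.956 to 0.979, pairs of day 1 arrays at 0.964 to 0.981, and day 4 with day 1 arrays at 0.891 to 0.917. Markers of other kidney cells set some arrays apart before any result is read. Over 20 markers of glomerular endothelium, the mean level was -0.95, -1.81, 1.04 and 1.38 on the day 4 arrays, against -1.87, -2.74, -3.14 and -0.15 on the day 1 arrays. Over 20 markers of the proximal tubule it was -2.46, -2.41, -1.93 and 2.34 on the day 4 arrays, against -3.49, -1.77, -2.90 and -3.50 on the day 1 arrays. The endothelial list was thus highest on MC822, MC823 and, among the day 1 mice, MC831, and the tubular list stood highest on MC823. Every gene list below was therefore also counted without the day 4 arrays of MC822 and MC823, a choice made after these levels were seen, and that count is given at least wherever a count of 3 or more moved by over 1.5 times.

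The difference between the days was broad. Of 15624 named genes tested, 3770 were higher on day 4 and 4101 lower, which is 24.1% and 26.2% of them, or 50.4% together, and the median difference over all genes was -0.0002. The largest changes were mostly rises: 2558 genes rose and 2043 fell by more than 1 on the log2 scale, but 335 rose and 47 fell by more than 4, and 174 rose and 15 fell by more than 5. The 4 day 4 and 4 day 1 values did not overlap in 6120 genes (39.2%). Each of the 4 slides held 1 array of each day. The difference had the same direction on all 4 slides in 3318 genes called higher (88.0%) and 3931 called lower (95.9%). Over all genes that share was 59.0%. The slide differences use the same arrays as the calls, so these shares are a description. With slide as a block 4489 genes were higher and 5001 lower. Without the day 4 arrays of MC822 and MC823, 2901 genes were higher and 3624 lower.

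**Figure D1:**
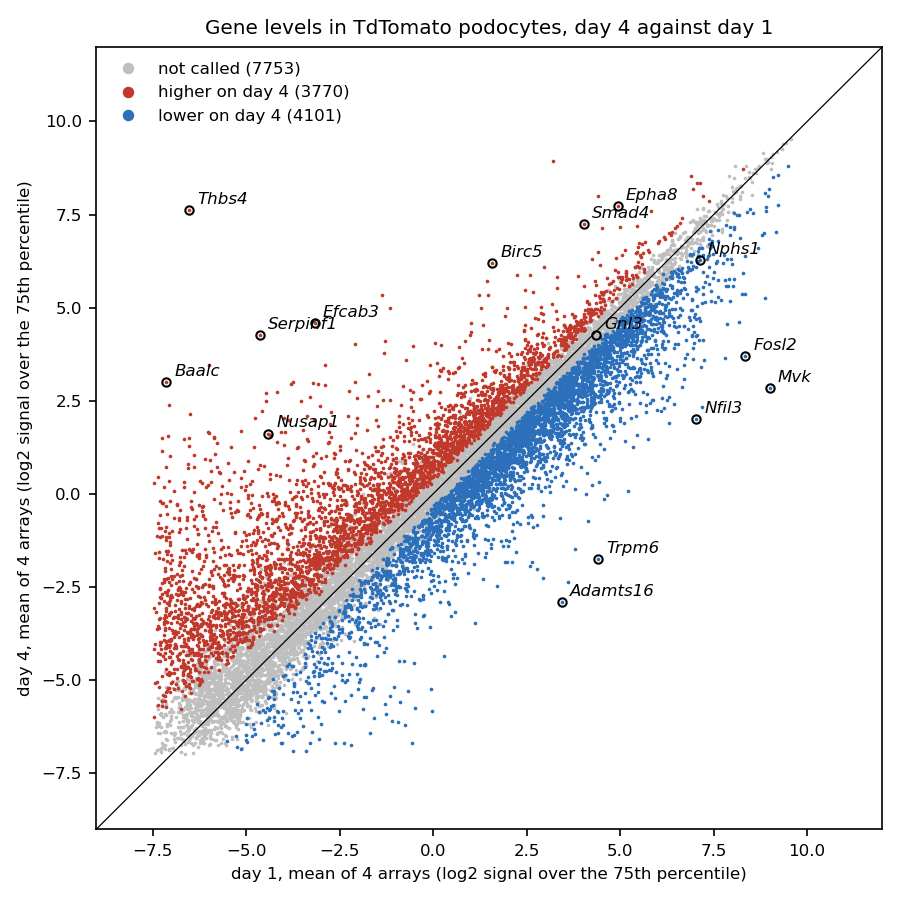
Mean level of each of the 15624 genes on the 4 day 4 arrays (y axis) against the 4 day 1 arrays (x axis), both as log2 signal over the 75th percentile of the array. Red points are the 3770 genes called higher, blue points the 4101 called lower and grey points the rest; a group of red genes that lies near the lower limit of the x axis, Thbs4 at its top, spans most of the y axis, while blue genes far below the diagonal are fewer.

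The largest difference among the genes tested was that of Thbs4, which encodes thrombospondin-4, a secreted matrix protein. Its level was 8.33, 7.30, 7.44 and 7.40 in day 4 podocytes, against -6.48, -7.48, -5.93 and -6.26 in day 1 podocytes, where no array held it well above background. The day 4 level was at least 6895-fold higher (adjusted p = 3.4e-18), a bound that belongs to the processed signal only. The difference within the 4 slides ran from 13.37 to 14.81 on the log2 scale. The mean was -6.50 on day 0 and 6.65 on day 7, so the transcript was at its highest on day 4 among the days sampled. Among 5 measured thrombospondins, 2 were called higher (40%) and 1 lower (20%) (all genes 24.1% and 26.2%). Without MC822 and MC823 the counts were the same, with a median of 0.255 in place of 1.26. The called members other than Thbs4 had smaller differences: Thbs3 rose (1.26 ± 0.31, adjusted p = 0.0014), and Thbs1, an activator of latent TGF-beta, fell (-1.36 ± 0.40, adjusted p = 0.0061).

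Thbs4 was one of many genes that appeared between the days. In all, 287 of the 15624 genes tested were well above background on 4 of 4 day 4 arrays and on none of the day 1 arrays. Of these, 254 were also below that limit on every day 0 array. On the day 7 arrays 107 of the 287 were well above background on both and 123 on neither. A probe was kept if well above background on 3 arrays, so a gene could enter through the day 4 arrays alone. Dimness on other days is thus partly built in, and these counts are a description. The converse, 4 day 1 arrays and no day 4 array, held for 60 genes, of which 28 had no day 0 array above the limit. Several of the genes with the largest rises are best known from other tissues. Baalc, a gene of brain and of blood progenitors, had levels of 3.37, 3.23, 2.74 and 2.64 on day 4, against -6.46, -7.45, -7.20 and -7.43 on day 1, a rise of at least 279.7-fold (adjusted p = 5.8e-15). Spink2, a protease inhibitor of the testis, was at least 184-fold higher (adjusted p = 2.7e-16). Ripk4, a kinase of the epidermis, was at least 383-fold higher (adjusted p = 2.6e-11). Pmch, the precursor of melanin-concentrating hormone of the hypothalamus, was at least 103-fold higher (adjusted p = 9.3e-16), and Svs6, Svs5 and Svs3a, seminal vesicle secretory proteins, were at least 99.1-fold, 85.9-fold and 72.0-fold higher (adjusted p = 2.7e-16, 1.9e-12 and 2.1e-14). With normexp background correction the differences of these genes were smaller but still called: 5.02 in place of 10.13 on the log2 scale for Baalc, 5.44 in place of 9.44 for Ripk4 and 4.42 in place of 9.46 for Spink2, which are below the bounds given from the processed signal. None of these genes had a day 1 array above background. That their 4 day 4 arrays lay above all 4 day 1 arrays was a condition of the choice, not a result.

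Some of the largest rises were in genes of hormone signalling, meiosis and the acute phase. Esr1, oestrogen receptor alpha, had levels of 1.24, -0.75, 2.86 and 1.24 in day 4 podocytes, against -6.57, -7.59, -7.30 and -7.56 in day 1 podocytes, a rise of at least 77.8-fold (adjusted p = 4.3e-11). The spread over the day 4 mice was wide, and days without overlap were a condition for naming this gene. Under normexp background correction its difference was 3.50 on the log2 scale in place of 8.41, still called. Stra8, which germ cells need to enter meiosis, was at least 42.7-fold higher, and Saa3, an acute-phase serum amyloid, at least 70.5-fold higher (adjusted p = 2.6e-10 and 9.7e-16). Pstpip1, an actin-linked adaptor of leukocytes, was at least 155-fold higher, and Grp, gastrin-releasing peptide, at least 44.5-fold (adjusted p = 3.1e-13 and 2.1e-14). Under normexp correction the log2 differences of Stra8, Saa3, Pstpip1 and Grp were 2.87, 3.10, 4.33 and 2.63, below these bounds but still called. Serpinf1, pigment epithelium-derived factor, was already well above background on 3 day 1 arrays and differed by 8.88 ± 0.50 (adjusted p = 1.5e-12). Efcab3 was measured on all 8 arrays, with levels of 4.01, 4.66, 5.43 and 4.27 in day 4 podocytes, against -3.43, -4.23, -2.18 and -2.83 in day 1 podocytes (7.76 ± 0.55, adjusted p = 5e-11). On day 7 the means of Baalc, Ripk4, Saa3 and Serpinf1 were 0.11, 1.98, -0.11 and 2.04, each below its day 4 values and above its day 1 values.

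Several of the largest falls were of genes whose day 1 level stood above those of the other days. Mvk, mevalonate kinase of cholesterol synthesis, stood at 3.20, 2.47, 2.81 and 2.86 in day 4 podocytes, against 10.10, 8.25, 8.69 and 8.96 in day 1 podocytes, a 71.7-fold fall (adjusted p = 2e-13). Its means on days 0 and 7 were 3.20 and 3.05, close to the day 4 values. Trpm6, a magnesium channel, had -1.72, -1.96, -1.57 and -1.72 in day 4 podocytes, against 5.06, 3.61, 4.51 and 4.45 in day 1 podocytes (-6.15 ± 0.34, adjusted p = 8.7e-13). Nfil3, a transcriptional repressor, had 1.94, 2.09, 2.02 and 2.0 in day 4 podocytes, against 8.00, 6.20, 6.41 and 7.47 in day 1 podocytes (-5.01 ± 0.54, adjusted p = 5.2e-08). In both genes the day 0 mean, -1.99 and 1.40, lay near the day 4 values. Gls2, a glutaminase, fell by 62.3-fold (adjusted p = 3.5e-10), Hoga1, of hydroxyproline breakdown, by 29.1-fold (adjusted p = 7.9e-13) and Cd83, a surface protein of activated immune cells, by 39.0-fold (adjusted p = 2.8e-12). Adamts16, a secreted protease, differed by -6.35 ± 0.72 on the log2 scale, with 3 of 4 day 4 arrays still above background (adjusted p = 9.5e-08). Over the whole table, 3248 of the 4101 genes called lower (79.2%) had a higher mean on day 1 than on day 0, and 2188 (53.4%) had a day 4 mean nearer to that of day 0 than the day 1 mean was. Over all genes tested, 44.4% had a higher and 55.6% a lower mean on day 1 than on day 0. Of the 3770 genes called higher, 2720 (72.1%) had a lower mean on day 1 than on day 0, and 1856 (49.2%) had the day 4 mean nearer to day 0, against 49.8% of all genes. Since these shares use the same day 1 and day 4 arrays as the calls, they are given as a description.

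**Figure D2:**
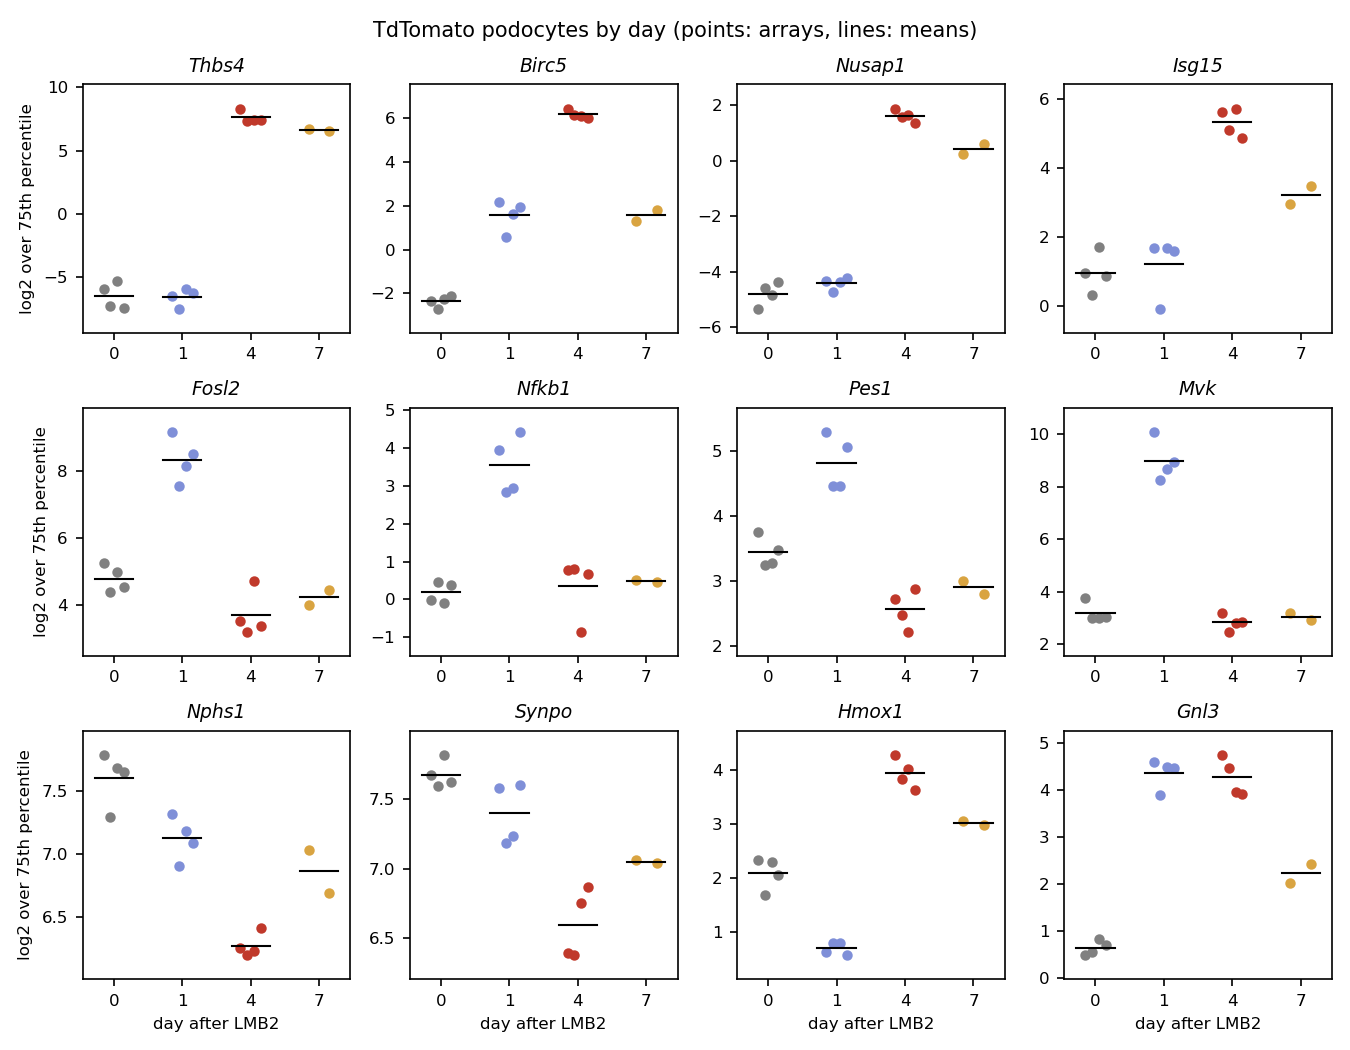
Level of 12 genes on each TdTomato array by day after LMB2 (x axis, 0, 1, 4 and 7 days; y axis, log2 signal over the 75th percentile, a scale of its own for each gene); points are arrays and lines are group means. Fosl2, Nfkb1, Pes1 and Mvk are highest on day 1 and lower on day 4, Thbs4, Birc5, Nusap1 and Isg15 are highest on day 4, and Gnl3 overlaps between days 1 and 4.

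Genes of mitosis were among the groups that rose. Mitosis genes build the spindle, the kinetochore and the midbody of a dividing cell. Of 38 measured members, 21 were called higher (55.3%) and 2 lower (5.26%) (all genes 24.1% and 26.2%), and the median difference of the list was 1.14, against -0.0002 over all genes. Without MC822 and MC823 it was 18 higher and 1 lower. Birc5, survivin, a subunit of the chromosomal passenger complex and an inhibitor of apoptosis, had levels of 6.45, 6.18, 6.13 and 6.01 in day 4 podocytes, against 2.16, 0.59, 1.64 and 1.95 in day 1 podocytes. This was a 24.4-fold rise (adjusted p = 3.2e-12), and the within-slide differences ran from 4.06 to 5.59. The day 0 mean of Birc5 was -2.34, below every day 1 value, and the day 7 mean was 1.57. Nusap1, which bundles spindle microtubules, had 1.88, 1.59, 1.64 and 1.37 in day 4 podocytes, against -4.32, -4.75, -4.37 and -4.23 in day 1 podocytes, a 65.8-fold rise (adjusted p = 8.4e-13). Prc1, which crosslinks the microtubules of the central spindle, had 1.1, 0.61, 0.77 and 0.52 in day 4 podocytes, against -2.71, -3.67, -3.46 and -3.03 in day 1 podocytes (3.97 ± 0.23, adjusted p = 3.2e-12). Kif22, a chromosome-arm kinesin, differed by 2.80 ± 0.30 (adjusted p = 4e-08), Ccnb2, a mitotic cyclin, by 2.54 ± 0.25 (adjusted p = 1e-08) and Kif20a, a midbody kinesin, by 2.18 ± 0.32 (adjusted p = 4.9e-06). In each of these genes, which were chosen by size of difference, the day 4 values lay above the day 1 values. Over the whole list 20 of 38 did not overlap, against 39.2% of all genes. Kif23, another midbody kinesin, went the other way: it was well above background on 4 day 1 arrays and on no day 4 array, at least 1.84-fold lower on day 4 (adjusted p = 3.6e-06), although the call was lost with normexp background correction (-0.40, adjusted p = 0.1).

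The proximal promoters of 8 genes are shown, because mitosis genes rose more often than they fell and their promoters can be set beside those of Thbs4 and Gnl3. They are the 6 called mitosis genes with the largest differences and a promoter in the RefSeq table, then Thbs4 and Gnl3. Each runs from 250 bases before to 50 bases after the RefSeq start in build GRCm38.p6, 5' to 3' on the strand of the gene, in lower case, with matches to CCAAT or TTTGAA on either strand in capitals (ATTGG and TTCAAA on the other strand). CCAAT spells the CCAAT box, and TTTGAA the core of the cell cycle genes homology region, an element known from promoters of late cell cycle genes. The promoters lie at chr11:117848987-117849286 (Birc5, plus strand), chr2:119618048-119618347 (Nusap1, plus), chr7:80294201-80294500 (Prc1, plus, 1 of 2 starts in the table), chr7:127042371-127042670 (Kif22, minus), chr9:61946750-61947049 (Kif23, minus), chr9:70421505-70421804 (Ccnb2, minus), chr13:92794769-92795068 (Thbs4, minus) and chr14:31019082-31019381 (Gnl3, minus).
Birc5: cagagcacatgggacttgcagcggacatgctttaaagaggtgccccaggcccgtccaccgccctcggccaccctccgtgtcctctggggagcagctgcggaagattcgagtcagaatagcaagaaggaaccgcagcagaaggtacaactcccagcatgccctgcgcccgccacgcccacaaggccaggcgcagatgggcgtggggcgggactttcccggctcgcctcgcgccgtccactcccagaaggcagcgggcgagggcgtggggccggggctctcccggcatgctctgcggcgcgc
Nusap1: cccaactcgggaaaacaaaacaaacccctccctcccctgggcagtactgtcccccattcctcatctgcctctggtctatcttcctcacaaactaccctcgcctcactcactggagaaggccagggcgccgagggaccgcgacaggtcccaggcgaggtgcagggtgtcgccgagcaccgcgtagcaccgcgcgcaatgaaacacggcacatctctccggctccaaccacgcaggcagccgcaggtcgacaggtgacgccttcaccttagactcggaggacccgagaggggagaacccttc
Prc1: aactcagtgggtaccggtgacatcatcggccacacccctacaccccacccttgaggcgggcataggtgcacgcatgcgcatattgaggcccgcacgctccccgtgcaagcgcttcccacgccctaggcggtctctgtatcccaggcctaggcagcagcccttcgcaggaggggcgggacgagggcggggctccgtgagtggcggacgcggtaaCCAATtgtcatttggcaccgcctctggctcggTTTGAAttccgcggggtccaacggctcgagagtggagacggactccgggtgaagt
Kif22: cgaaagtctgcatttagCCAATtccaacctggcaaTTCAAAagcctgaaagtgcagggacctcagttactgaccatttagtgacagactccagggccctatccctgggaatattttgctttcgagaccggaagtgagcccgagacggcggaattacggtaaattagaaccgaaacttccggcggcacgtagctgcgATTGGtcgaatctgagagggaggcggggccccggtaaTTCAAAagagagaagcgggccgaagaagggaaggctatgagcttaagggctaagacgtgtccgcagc
Kif23: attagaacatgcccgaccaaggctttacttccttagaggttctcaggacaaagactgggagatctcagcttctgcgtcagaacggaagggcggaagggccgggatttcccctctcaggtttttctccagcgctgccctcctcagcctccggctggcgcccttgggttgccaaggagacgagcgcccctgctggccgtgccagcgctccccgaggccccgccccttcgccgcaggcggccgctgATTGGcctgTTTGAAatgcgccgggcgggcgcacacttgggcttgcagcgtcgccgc
Ccnb2: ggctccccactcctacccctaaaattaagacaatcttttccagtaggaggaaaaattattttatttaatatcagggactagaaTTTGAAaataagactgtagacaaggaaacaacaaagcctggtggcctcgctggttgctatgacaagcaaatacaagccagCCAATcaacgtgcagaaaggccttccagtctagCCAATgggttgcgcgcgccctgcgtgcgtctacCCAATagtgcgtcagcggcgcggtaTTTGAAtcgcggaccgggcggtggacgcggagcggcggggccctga
Thbs4: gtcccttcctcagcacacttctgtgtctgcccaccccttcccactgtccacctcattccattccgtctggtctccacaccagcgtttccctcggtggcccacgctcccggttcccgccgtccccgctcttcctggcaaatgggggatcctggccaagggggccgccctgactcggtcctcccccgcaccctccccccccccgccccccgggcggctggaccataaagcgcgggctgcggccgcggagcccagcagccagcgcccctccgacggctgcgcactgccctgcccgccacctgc
Gnl3: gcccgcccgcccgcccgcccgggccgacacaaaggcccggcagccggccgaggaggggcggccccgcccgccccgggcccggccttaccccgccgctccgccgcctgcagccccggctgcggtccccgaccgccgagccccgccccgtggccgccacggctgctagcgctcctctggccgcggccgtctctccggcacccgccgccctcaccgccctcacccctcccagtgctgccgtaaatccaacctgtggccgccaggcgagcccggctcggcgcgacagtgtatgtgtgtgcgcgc

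The promoters of Prc1, Kif22, Kif23 and Ccnb2 held both motifs, and those of Birc5, Nusap1, Thbs4 and Gnl3 neither. In Prc1, CCAAT began 37 bases and TTTGAA 5 bases before the start of transcription, and Kif23, whose transcript fell, had the same pair as Ccnb2, whose transcript rose. Over the list, 17 of the 20 called mitosis genes with a promoter in the table (85.0%) held CCAAT and 15 (75%) held TTTGAA, counting a gene if any of its starts did. Over all 27025 genes of the table the shares were 41.1% and 20.2%, and over the 12404 tested genes with a promoter 42.5% and 15.2%. Of the 32 measured mitosis genes with a promoter, called or not, 75% held CCAAT and 71.9% TTTGAA. Among 44 called genes of nucleolar ribosome biogenesis the shares were 38.6% for CCAAT and 15.9% for TTTGAA. The E-box that MYC binds, CACGTG, was in 18.2% of those 44 and in 20.8% of 24 called immediate early genes, against 10.7% of the tested genes, 8.09% of the table and 0 of the 20 mitosis genes. Among measured genes, called or not, it was in 18.3% of 60 nucleolar, 26.5% of 34 immediate early and 6.25% of 32 mitosis genes. TGACTCA, an AP-1 site, was in 1 of these 24 immediate early genes (4.17%), against 4.89% of the tested genes and 5.95% of the table. None of the 4 motifs contains another, and the shares are a description of letters in this window.

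Genes of DNA replication also rose. Of 39 measured genes, 24 were called higher (61.5%) and 2 lower (5.13%) (all genes 24.1% and 26.2%), with a median difference of 0.90. Fen1, the flap endonuclease of Okazaki fragments, had 3.57, 3.23, 2.91 and 2.92 in day 4 podocytes, against 0.33, -0.07, 0.02 and 0.36 in day 1 podocytes (3.0 ± 0.21, adjusted p = 4.9e-11). Cdt1, which loads the MCM helicase, rose by 7.48-fold (adjusted p = 9.6e-09), and the helicase subunits Mcm3 and Mcm5 by 4.46-fold and 3.38-fold (adjusted p = 3.3e-08 and 8.5e-09). Tk1, thymidine kinase, was well above background on 4 day 4 and 3 day 1 arrays and differed by 3.18 ± 0.43 (adjusted p = 1.4e-06). Chaf1b, a subunit of the chromatin assembly factor, fell: it had 0.46, -0.24, -0.03 and -0.25 in day 4 podocytes, against 5.31, 2.30, 4.45 and 4.35 in day 1 podocytes (-4.12 ± 0.40, adjusted p = 1.1e-08). Against their day 0 means, the replication genes had a median of -0.62 on day 1, 0.15 on day 4 and 0.24 on day 7, and the mitosis genes -0.50 on day 1, 0.45 on day 4 and 0.49 on day 7, so on day 4 the lists stood 0.15 and 0.45 above day 0.

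Regulators of the G1 phase changed in both directions. Of 18 measured, 8 were called higher (44.4%) and 5 lower (27.8%) (all genes 24.1% and 26.2%), and without MC822 and MC823 it was 3 higher and 5 lower. Cdkn1a, the p21 inhibitor of cyclin-dependent kinases, had 3.28, 2.89, 3.65 and 3.13 in day 4 podocytes, against 0.42, -0.22, 0.87 and 1.02 in day 1 podocytes, a 6.56-fold rise (adjusted p = 7.5e-05). Cyclin Ccnd1 rose (1.51 ± 0.30, adjusted p = 0.0002), while cyclins Ccnd2 and Ccnd3 fell (-1.99 ± 0.39, adjusted p = 0.00016, and -1.42 ± 0.28, adjusted p = 0.00017). The inhibitor Cdkn1a and the cyclin Ccnd1 were thus both higher on day 4.

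Genes of nucleolar ribosome biogenesis fell widely. They make and process ribosomal RNA in the nucleolus. Of 69 measured, 2 were called higher (2.9%) and 47 lower (68.1%) (all genes 24.1% and 26.2%), and the median difference was -0.59. Pes1 and Bop1, of the complex that processes the large-subunit rRNA, had 2.73, 2.47, 2.22 and 2.87 and 2.47, 1.96, 2.84 and 2.39 in day 4 podocytes, against 5.30, 4.46, 4.47 and 5.07 and 4.74, 3.86, 4.30 and 4.34 in day 1 podocytes. These were differences of -2.25 ± 0.24 (adjusted p = 3.6e-08) for Pes1 and -1.89 ± 0.20 (adjusted p = 3.4e-08) for Bop1. Wdr75, of the small-subunit processome, fell by 2.78-fold (adjusted p = 2.8e-08), and Ftsj3 and Grwd1 by 2.76-fold and 2.46-fold (adjusted p = 2.5e-05 and 6.1e-07). Against day 0, the median of the list was 0.97 on day 1, 0.21 on day 4 and -0.24 on day 7.

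Gnl3, nucleostemin, a nucleolar GTPase of proliferating cells, was among the 20 of 69 members of that list that were not called. Its levels were 4.74, 4.46, 3.96 and 3.91 in day 4 podocytes, against 4.60, 3.90, 4.48 and 4.45 in day 1 podocytes, and the groups overlapped (-0.09 ± 0.18, adjusted p = 0.73). Both were well above the day 0 arrays, which read 0.49, 0.55, 0.83 and 0.70, and the day 7 mean was 2.23. The sign of the difference turned without MC822 (0.02), without MC823 (0.03), without both (0.24) and under quantile normalization (0.26), and none of these was called.

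Few ribosomal protein transcripts were called. Of 78, 4 were called higher (5.13%) and 3 lower (3.85%) (all genes 24.1% and 26.2%), or 4 higher and 5 lower without MC822 and MC823, and the median difference was 0.02. Among those called, Rpl18 differed by 0.78 ± 0.20 (adjusted p = 0.0026) and Rpl29 by 0.66 ± 0.15 (adjusted p = 0.00091). Of 45 translation factors, 2 were called higher (4.44%) and 20 lower (44.4%), with a median of -0.38. The helicase Eif4a2 fell by 3.28-fold (adjusted p = 8.4e-08), the factor Eif5a, which carries hypusine, by 1.96-fold (adjusted p = 6.9e-06) and the termination factor Etf1 by 2.21-fold (adjusted p = 0.00024). Eif4ebp1, which restrains cap-dependent initiation, rose by 2.71-fold (adjusted p = 3.9e-05).

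The transcript of the toxin's target did not pass the test. Eef2, encoding EF2, had 6.61, 6.28, 6.72 and 6.33 in day 4 podocytes, against 7.36, 6.24, 6.51 and 6.95 in day 1 podocytes, with overlap (-0.28 ± 0.19, adjusted p = 0.24), and it was called lower once the day 1 array of MC541 was left out (-0.45, adjusted p = 0.046). Of 13 genes of diphthamide synthesis and toxin entry, 2 were called higher (15.4%) and 5 lower (38.5%) (all genes 24.1% and 26.2%). Dph5, the methyltransferase of diphthamide, had 0.96, 0.89, 0.93 and 0.88 in day 4 podocytes, against 2.50, 2.05, 2.13 and 2.33 in day 1 podocytes, a 2.53-fold fall (adjusted p = 5.5e-09), and Dph6, of the final amidation, fell by 2.17-fold (adjusted p = 0.00039). Kdelr3, a receptor that returns proteins to the endoplasmic reticulum, rose (1.90 ± 0.30, adjusted p = 1e-05) and was above background on 3 of 4 day 1 arrays. Among 20 aminoacyl-tRNA synthetases, 3 were called higher (15%) and 5 lower (25%): Eprs fell by 7.06-fold (adjusted p = 3.6e-11), whereas Cars and Gars rose (1.12 ± 0.22, adjusted p = 0.00015, and 0.72 ± 0.17, adjusted p = 0.00081).

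Immediate early genes, the first transcription factors that a stimulus switches on, were widely lower on day 4. Of 45 measured, 2 were called higher (4.44%) and 27 lower (60%) (all genes 24.1% and 26.2%), with a median difference of -0.87. Fosl2, a FOS-family AP-1 subunit, had 3.52, 3.19, 4.71 and 3.38 in day 4 podocytes, against 9.18, 7.54, 8.14 and 8.52 in day 1 podocytes, a 25.1-fold fall (adjusted p = 6.2e-10). Klf10, a TGF-beta-inducible zinc finger factor, had 2.47, 2.75, 2.44 and 2.41 in day 4 podocytes, against 6.64, 5.41, 6.81 and 6.14 in day 1 podocytes (-3.73 ± 0.31, adjusted p = 8.4e-10). The orphan nuclear receptors Nr4a3 and Nr4a2 fell by 8.97-fold and 7.69-fold (adjusted p = 5.5e-08 and 4.3e-07), the kinase Sik1 by 7.09-fold and the survival gene Ier3 by 4.09-fold (adjusted p = 4.5e-09 and 7.4e-07). These 6 were chosen by size of difference, and none had overlapping days. Over the whole list 20 of 45 did not overlap, against 39.2% of all genes. Jun itself was not called (-0.17 ± 0.28, adjusted p = 0.64) and overlapped between the days.

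NF-kB subunits and most of their feedback inhibitors fell, while the secreted cytokines that were called changed in both directions. Of 38 members of the list, 5 were called higher (13.2%) and 19 lower (50%) (all genes 24.1% and 26.2%). The other 14 were not called, and most of them were secreted cytokines. Nfkb1 (p50) had 0.79, 0.79, -0.86 and 0.68 in day 4 podocytes, against 3.96, 2.85, 2.95 and 4.44 in day 1 podocytes, a 9.18-fold fall (adjusted p = 8.4e-08), and Rela (p65) fell by 3.72-fold (adjusted p = 1.8e-06). The inhibitors Nfkbie, Nfkbia and Tnfaip3 (A20) fell by 7.73-fold, 2.47-fold and 5.17-fold (adjusted p = 3.5e-08, 0.0003 and 4.8e-07). The inhibitor Nfkbib was not called (-0.54, adjusted p = 0.057), but was with slide as a block (adjusted p = 0.023) and without MC541 (-0.84, adjusted p = 0.00076). Of the cytokines, Lif fell by 10.4-fold (adjusted p = 6.9e-08), and Tnf and Il11 fell by 1.76 and 0.65 on the log2 scale (adjusted p = 0.00036 and 0.02), the call of Il11 being lost without any 1 of MC542, MC831, MC151 or MC823 (adjusted p from 0.059 to 0.095). Nfkbib, Tnf and Il11 were chosen after their values were seen. In the other direction, Ccl4, a chemokine for monocytes, had 0.0045, -0.45, -0.07 and -0.89 in day 4 podocytes, against -6.46, -7.49, -7.18 and -4.79 in day 1 podocytes, where 1 array was above background (6.13 ± 0.48, adjusted p = 2.5e-10). Il6 was at least 5.60-fold and Csf3 at least 6.54-fold higher, with no day 1 array above background (adjusted p = 4.1e-10 and 1.8e-05), and Ccl5 was 9.16-fold higher (adjusted p = 0.0008). Under normexp background correction the differences of Il6 and Csf3 were 0.79 and 0.80 on the log2 scale in place of 4.525 and 3.67. Both were still called, but lay below the bounds given from the processed signal.

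Interferon-stimulated genes rose more often than they fell. Of 32 measured, 15 were called higher (46.9%) and 3 lower (9.38%) (all genes 24.1% and 26.2%), with a median difference of 0.96; without MC822 and MC823 it was 11 higher and 2 lower. Isg15, a ubiquitin-like modifier, had 5.63, 5.10, 5.73 and 4.86 in day 4 podocytes, against 1.69, -0.07, 1.69 and 1.60 in day 1 podocytes, a 17.2-fold rise (adjusted p = 1.3e-09). Parp14 and Gbp3 rose by 5.81-fold and 5.54-fold (adjusted p = 2.5e-07 and 2e-05). The RNA-binding antiviral genes Ifit3 and Ifit2 went down, with 1.03, 1.06, 1.81 and 0.92 for Ifit3 in day 4 podocytes, against 4.93, 4.13, 4.20 and 5.03 in day 1 podocytes (-3.37 ± 0.27, adjusted p = 3.3e-10), and -2.62 ± 0.21 for the difference of Ifit2 (adjusted p = 3.1e-10). Of 21 genes of class I antigen presentation, 8 were called higher (38.1%) and 2 lower (9.52%), or 8 higher and 0 lower without MC822 and MC823. The immunoproteasome subunits Psmb8 and Psmb10 rose by 9.51-fold and 3.18-fold and the peptide transporter Tap2 by 2.03-fold (adjusted p = 3.8e-07, 2.8e-05 and 0.00018). Of 31 subunits of the standard proteasome, 2 were called higher (6.45%) and 6 lower (19.4%), with a median of -0.04; Psmd8 fell by 1.97-fold (adjusted p = 9.5e-06).

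Stress pathways had members in both directions. Of 29 ATF4 targets and serine synthesis genes, 11 were called higher (37.9%) and 6 lower (20.7%) (all genes 24.1% and 26.2%). The stress transcription factors Cebpb and Ddit3 (CHOP) fell, with 3.29, 3.03, 3.33 and 2.86 for Ddit3 in day 4 podocytes, against 6.03, 4.89, 5.36 and 5.70 in day 1 podocytes (-2.37 ± 0.28, adjusted p = 2e-07), and a 7.81-fold fall for Cebpb (adjusted p = 2.9e-08). Atf5 rose, with 7.33, 6.94, 7.57 and 6.74 in day 4 podocytes, against 5.04, 3.49, 4.83 and 4.72 in day 1 podocytes (2.62 ± 0.30, adjusted p = 9.9e-08). The mitochondrial folate and serine enzymes Mthfd2, Shmt2 and Psat1 rose by 7.98-fold, 5.07-fold and 5.32-fold (adjusted p = 1.7e-06, 4.3e-10 and 1.5e-08), and the secreted stress hormone Gdf15 by 4.54-fold (adjusted p = 0.00038). Of 27 endoplasmic reticulum chaperones, 17 were called higher (63%) and 0 lower, with a median of 0.77, and without MC822 and MC823 it was 8 higher and 0 lower. Sdf2l1, Manf and Pdia6 rose by 3.20-fold, 2.73-fold and 2.07-fold (adjusted p = 0.00045, 0.00014 and 3.5e-05), while Hspa5 (BiP) differed by 0.28 ± 0.14 (adjusted p = 0.097) and was called higher with slide as a block (adjusted p = 0.034), under quantile normalization (0.47, adjusted p = 0.035) and without MC692 (0.39, adjusted p = 0.027). The chaperones stayed under day 0: the medians against day 0 were -1.64 on day 1, -0.89 on day 4 and -0.75 on day 7. Of 32 heat shock genes and cytosolic chaperones, 2 were called higher (6.25%) and 11 lower (34.4%). Hsf1, the heat shock factor, fell by 3.67-fold, Dnajb4 by 4.86-fold and the mitochondrial co-chaperonin Hspe1 by 1.81-fold (adjusted p = 4.8e-08, 9.4e-10 and 0.00085).

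Podocyte genes fell more often than they rose. Of 19 slit diaphragm genes, 0 were called higher and 10 lower (52.6%) (all genes 24.1% and 26.2%), with a median of -0.57. Nephrin had 6.25, 6.20, 6.23 and 6.41 in day 4 podocytes, against 7.32, 6.91, 7.18 and 7.09 in day 1 podocytes, a 1.81-fold fall (adjusted p = 0.00016), and its day 0 mean of 7.60 was above both. Scaffold and signalling genes of the slit diaphragm also fell: Prkci, the polarity kinase aPKC, fell by 3.24-fold, the adaptor Nck1 by 3.21-fold, the phospholipase Plce1 by 2.85-fold and Tjp1 (ZO-1) by 2.35-fold (adjusted p = 5.2e-10, 3.1e-09, 1.8e-08 and 4.1e-08). Prkci had 5.05, 5.18, 5.69 and 4.93 in day 4 podocytes, against 6.97, 6.70, 6.87 and 7.09 in day 1 podocytes, and a day 0 mean of 5.32.

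Of 22 foot process and surface genes, 1 was called higher (4.55%) and 9 lower (40.9%) (all genes 24.1% and 26.2%). Synaptopodin, the actin-bundling protein of foot processes, had 6.39, 6.38, 6.75 and 6.86 in day 4 podocytes, against 7.58, 7.18, 7.23 and 7.60 in day 1 podocytes (-0.80 ± 0.14, adjusted p = 3.5e-05). Rhpn1 (rhophilin), a protein of the foot process, fell by 6.78-fold, the formin Inf2 by 3.27-fold, alpha-actinin-4 (Actn4) by 1.96-fold and neprilysin (Mme) by 2.36-fold (adjusted p = 3.6e-08, 1.9e-05, 0.0046 and 1.2e-08). Podocalyxin (Podxl) differed by 0.49 ± 0.28 (adjusted p = 0.15) and Ptpro (GLEPP1) by 0.29 ± 0.14 (adjusted p = 0.082). Both were called higher with slide as a block (adjusted p = 0.035 and 0.039) and without the day 1 array of MC541, at 0.75 (adjusted p = 0.026) and 0.37 (adjusted p = 0.034), and Ptpro also without the day 4 array of MC692 (0.38, adjusted p = 0.03). Of 14 podocyte transcription factors, 2 were called higher (14.3%) and 9 lower (64.3%). Foxc2 had 4.60, 4.33, 5.13 and 4.63 in day 4 podocytes, against 7.44, 6.22, 6.75 and 7.04 in day 1 podocytes, a 4.57-fold fall (adjusted p = 1.4e-08), and Foxd1 and Foxd2 fell by 2.35-fold and 1.95-fold (adjusted p = 4.5e-06 and 4.5e-05). Wt1 was called lower (-0.53 ± 0.21, adjusted p = 0.039), with overlapping days, and lost the call without any 1 of MC151, MC692, MC822, MC125 or MC831, at -0.54 to -0.37 with adjusted p from 0.059 to 0.16. Des, desmin, a filament protein often taken as a mark of podocyte injury, had -1.91, -1.34, -1.45 and -0.82 in day 4 podocytes, against -1.76, -1.17, -1.34 and -1.03 in day 1 podocytes (-0.05 ± 0.26, adjusted p = 0.88), and a day 7 mean of 1.07.

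**Figure D3:**
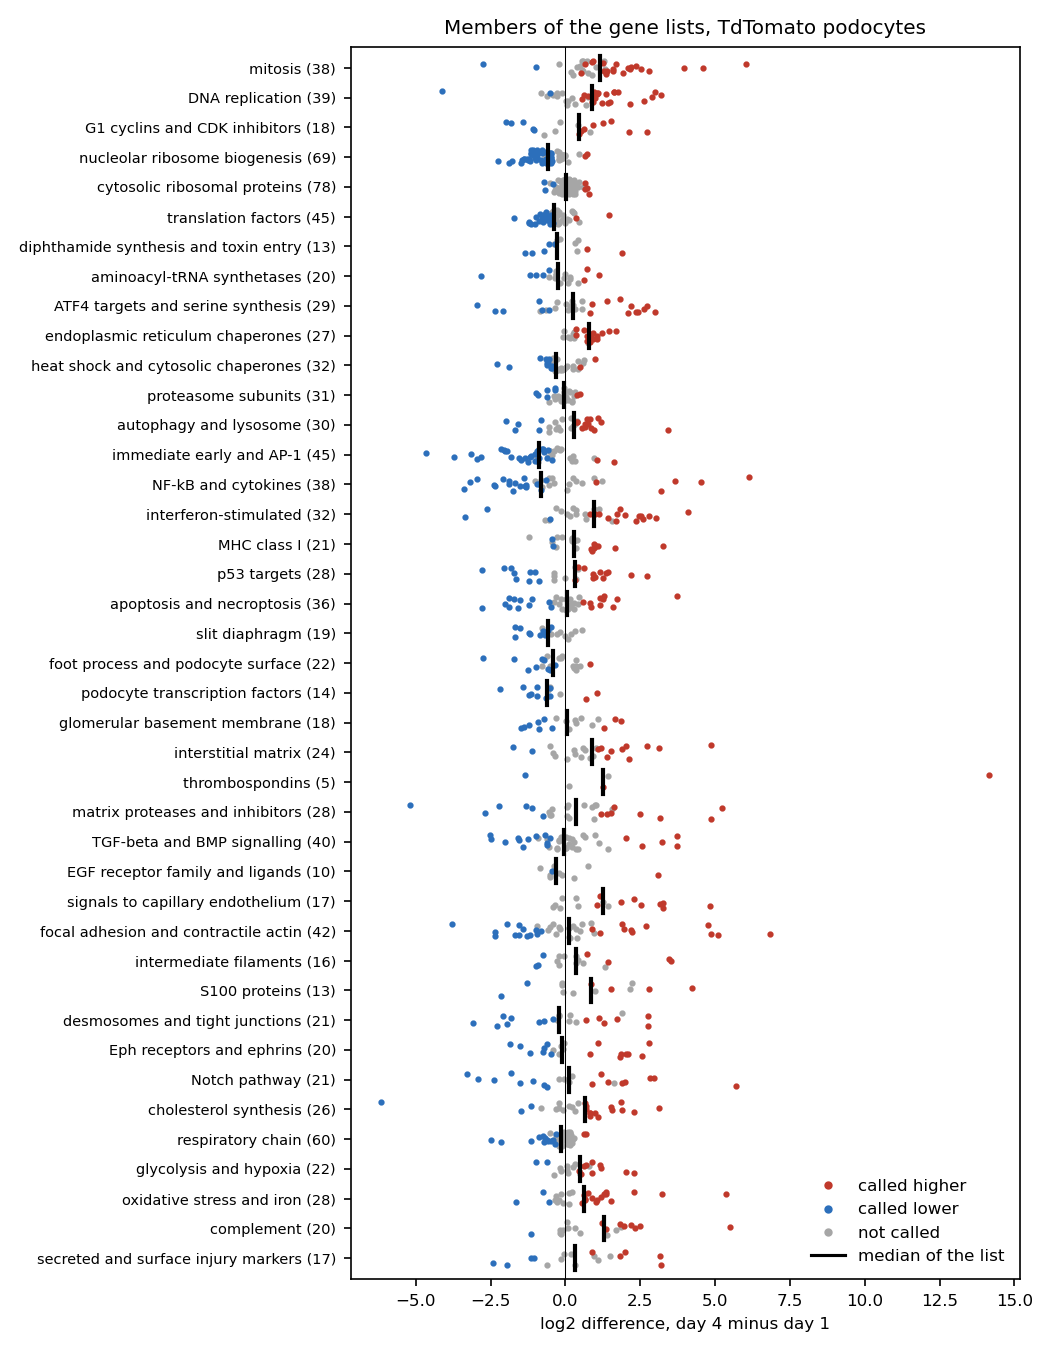
Log2 difference of day 4 minus day 1 (x axis) for each measured member of 41 gene lists (y axis, number of members in brackets); red points were called higher, blue lower, grey neither, and the black bar is the median of the list. The bars of mitosis, DNA replication, endoplasmic reticulum chaperones and signals to the capillary endothelium lie right of 0, those of nucleolar ribosome biogenesis, immediate early genes, NF-kB and slit diaphragm genes left of 0, and cytosolic ribosomal proteins sit at 0.

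Basement membrane genes fell more often than they rose, and interstitial matrix genes rose more often. Of 18 glomerular basement membrane genes, 3 were called higher (16.7%) and 7 lower (38.9%) (all genes 24.1% and 26.2%), with a median of 0.06, and of -0.42 without MC822 and MC823. The laminin chain Lamb2, the nidogen Nid2 and agrin (Agrn) fell by 2.35-fold, 2.82-fold and 1.89-fold (adjusted p = 5.6e-05, 2.7e-06 and 0.00045), while laminin Lamc1 and perlecan (Hspg2) rose by 2.42-fold and 3.63-fold (adjusted p = 0.00017 and 0.00057). Of 24 interstitial matrix genes, 10 were called higher (41.7%) and 2 lower (8.33%). Col16a1, a collagen that lies along other fibrils, had 1.47, 1.42, 1.13 and 0.86 in day 4 podocytes, against -3.64, -4.04, -3.57 and -3.25 in day 1 podocytes, a 28.8-fold rise (adjusted p = 1.1e-13). The collagen I chain Col1a2 rose by 2.15-fold, and the elastic fibre protein Fbln5 by 4.36-fold (adjusted p = 0.00049 and 1.7e-05). The mean of Col1a2 was 7.77 on day 0, 5.66 on day 1 and 6.76 on day 4, so it stayed below day 0. That of Fbln5 was -2.59, -2.84 and -0.72 on these days, so it ended above day 0.

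Matrix proteases and inhibitors were called about as often as all genes. Of 28 proteases and inhibitors, 8 were called higher (28.6%) and 6 lower (21.4%) (all genes 24.1% and 26.2%). Plau, urokinase, was well above background on 4 day 1 arrays and 1 day 4 array, with -5.60, -6.30, -5.38 and -3.66 in day 4 podocytes, against 0.30, -0.23, -0.83 and 0.57 in day 1 podocytes (-5.19 ± 0.52, adjusted p = 1.4e-08). The collagenase Mmp13 and the gelatinase Mmp9 were above background on all 4 day 4 arrays and on no day 1 array, at least 16.7-fold and 6.70-fold higher (adjusted p = 1.3e-10 and 1.1e-11). With normexp background correction their differences were 1.58 and 0.95 on the log2 scale in place of 5.23 and 4.86, still called. The aggrecanase Adamts4 fell by 6.38-fold (adjusted p = 0.00081). Of 40 genes of TGF-beta and BMP signalling, 5 were called higher (12.5%) and 12 lower (30%). The signal transducer Smad4 had 7.20, 7.46, 7.72 and 6.62 in day 4 podocytes, against 4.23, 3.44, 4.33 and 4.14 in day 1 podocytes, a 9.31-fold rise (adjusted p = 1.1e-11). The transducer Smad3 of the TGF-beta receptor had 2.20, 2.18, 2.83 and 2.55 in day 4 podocytes, against 5.29, 4.08, 5.13 and 5.35 in day 1 podocytes, a 5.74-fold fall (adjusted p = 1.2e-09). The ligand Tgfb3 and the type I receptor Bmpr1b fell by 4.10-fold and 5.57-fold (adjusted p = 4.6e-05 and 2e-07), and Id1, a BMP target, rose by 4.05-fold (adjusted p = 5.2e-06).

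Adhesion genes were also called about as often as all genes. Of 42 genes of focal adhesions and contractile actin, 11 were called higher (26.2%) and 13 lower (31%) (all genes 24.1% and 26.2%). Itga5, the fibronectin receptor chain, had -2.21, -1.84, -1.65 and -1.63 in day 4 podocytes, against 2.27, 1.53, 1.58 and 2.48 in day 1 podocytes, a 13.9-fold fall (adjusted p = 2.5e-10), and its partners in the adhesion, Lims1 (PINCH) and Lims2, fell by 5.14-fold and 5.08-fold (adjusted p = 6.6e-08 and 7.4e-08). Itgb6, the integrin chain that activates latent TGF-beta, was above background on 1 day 1 array and differed by 4.85 ± 0.49 on the log2 scale (adjusted p = 1.9e-08). Cardiac actin (Actc1) had -0.05, -0.21, -0.03 and -0.47 in day 4 podocytes, against -6.36, -7.48, -7.02 and -7.26 in day 1 podocytes, at least 30.8-fold more (adjusted p = 5.2e-14), and calponin (Cnn1), a smooth muscle protein, was at least 12.3-fold higher (adjusted p = 4.6e-07). Under normexp background correction their differences were 2.24 and 1.32 on the log2 scale in place of 6.84 and 5.11, still called. Of 16 intermediate filament genes, 4 were called higher (25%) and 3 lower (18.8%), near the shares of all genes: nestin (Nes) fell by 1.96-fold (adjusted p = 0.00055), and lamin Lmnb1 rose by 2.65-fold (adjusted p = 2.3e-06). Of 13 S100 calcium-binding proteins, 4 were called higher (30.8%) and 2 lower (15.4%), or 2 higher and 3 lower without MC822 and MC823, and S100a14, above background on 4 day 4 and 3 day 1 arrays, rose by 18.8-fold (adjusted p = 5.7e-09).

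Junctions, ephrins and Notch each had members in both directions. Of 21 desmosome and tight junction genes, 6 were called higher (28.6%) and 8 lower (38.1%) (all genes 24.1% and 26.2%); the claudin Cldn1, which podocytes gain when injured and parietal cells carry, fell by 8.55-fold, plakophilin (Pkp2) by 4.89-fold, and envoplakin (Evpl) rose by 6.81-fold (adjusted p = 9.6e-06, 1e-08 and 1.4e-10). Of 20 Eph receptors and ephrins, 8 were called higher (40%) and 7 lower (35%). Epha8 had 8.65, 8.01, 7.35 and 6.92 in day 4 podocytes, against 6.12, 3.70, 6.70 and 3.22 in day 1 podocytes, with no overlap but a wide day 1 spread (2.80 ± 0.71, adjusted p = 0.002), and its day 0 mean was -5.99. Of 21 Notch genes, 8 were called higher (38.1%) and 8 lower (38.1%). The receptor Notch3 had 1.98, 1.38, 1.83 and 1.41 in day 4 podocytes, against -4.09, -4.63, -4.85 and -2.67 in day 1 podocytes, a 52.4-fold rise (adjusted p = 4.7e-09); Notch1 rose by 7.14-fold and the ligand Dll1 by 4.00-fold (adjusted p = 5.6e-06 and 1.3e-05). The canonical target Hes1 and the ligand Dner fell by 7.64-fold and 9.70-fold (adjusted p = 4.1e-05 and 3.3e-06).

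Podocytes signal to the capillary endothelium through secreted factors, and of 17 such genes, 9 were called higher (52.9%) and 0 lower (all genes 24.1% and 26.2%), with a median of 1.25. Without MC822 and MC823 it was 6 higher and 0 lower, with a median of 0.80. Edn1, endothelin-1, had 3.14, 3.22, 3.99 and 2.96 in day 4 podocytes, against 0.46, -0.93, 0.44 and 0.72 in day 1 podocytes, an 8.90-fold rise (adjusted p = 3.8e-06). Placental growth factor (Pgf) was above background on 2 day 1 arrays and differed by 4.81 ± 0.52 (adjusted p = 4.7e-08), and Angptl4, an inhibitor of lipoprotein lipase, rose by 9.57-fold (adjusted p = 1.1e-05). Vegfa, the main endothelial survival factor from podocytes, had a difference of -0.13 ± 0.18 that was not called (adjusted p = 0.57), and the mean of its probes gave 0.096. Of the EGF receptor family and its ligands, Hbegf was the 1 gene of 10 called higher, beside 1 called lower, with 3.79, 3.12, 3.36 and 2.88 in day 4 podocytes, against 0.65, -0.09, -0.43 and 0.70 in day 1 podocytes (3.08 ± 0.35, adjusted p = 9.1e-08).

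Cholesterol and glycolysis genes rose more often than they fell. Of 26 cholesterol genes, 14 were called higher (53.8%) and 3 lower (all genes 24.1% and 26.2%). Fdps, farnesyl diphosphate synthase, had 2.92, 2.90, 3.33 and 2.81 in day 4 podocytes, against 1.07, 1.42, 0.96 and 0.90 in day 1 podocytes, a 3.74-fold rise (adjusted p = 9.2e-11). The 3 members that fell were Mvk, the next kinase of the pathway, Pmvk (-1.16 ± 0.23, adjusted p = 0.00016), and Srebf2, the factor that drives the pathway's genes (-1.48 ± 0.21, adjusted p = 3e-06). Of 22 glycolysis and hypoxia genes, 10 were called higher (45.5%) and 2 lower (9.09%), or 6 higher and 2 lower without MC822 and MC823. Hexokinase Hk1 rose by 4.02-fold and Gpi1 by 2.25-fold (adjusted p = 3.3e-07 and 1.1e-05). Of 60 respiratory chain genes, 2 were called higher (3.33%) and 13 lower (21.7%), with a median of -0.13, so both shares were below those of all genes. The ATP synthase subunit Atp5d fell by 5.56-fold, and Sdha, of complex II, by 2.23-fold (adjusted p = 1.8e-08 and 3.4e-08).

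Of 28 genes of oxidative stress and iron, 16 were called higher (57.1%) and 3 lower (10.7%) (all genes 24.1% and 26.2%). Heme oxygenase (Hmox1) had 4.29, 3.84, 4.02 and 3.63 in day 4 podocytes, against 0.64, 0.79, 0.80 and 0.58 in day 1 podocytes, a 9.46-fold rise (adjusted p = 2.3e-10). The glutathione and NADPH genes Gclm, Gsr and G6pdx rose by 2.56-fold, 2.44-fold and 2.87-fold (adjusted p = 3.6e-07, 5.9e-05 and 3.3e-05). Gpx4, the peroxidase that protects membrane lipids, had 6.27, 5.96, 6.68 and 6.33 in day 4 podocytes, against 8.44, 7.48, 7.97 and 7.97 in day 1 podocytes, a 3.15-fold fall (adjusted p = 2.1e-08). Hepcidin (Hamp), the iron hormone of the liver, was above background on all 4 day 4 arrays and on no day 1 array, at least 15.2-fold higher (adjusted p = 5.1e-09). With normexp background correction its difference was 1.54 on the log2 scale in place of 5.37, still called. Of 30 autophagy and lysosome genes, 13 were called higher (43.3%) and 5 lower (16.7%), or 7 higher and 5 lower without MC822 and MC823. Tfe3 and Ulk1, which switch autophagy on, fell by 3.25-fold and 2.98-fold (adjusted p = 6.4e-06 and 8.1e-07).

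Targets of p53 and death pathway genes changed in both directions. Of 28 p53 targets, 12 were called higher (42.9%) and 9 lower (32.1%) (all genes 24.1% and 26.2%). The death receptor Fas had 0.02, -0.12, 0.46 and 0.36 in day 4 podocytes, against 3.31, 1.98, 3.25 and 3.39 in day 1 podocytes, a 6.98-fold fall (adjusted p = 7e-07), and Btg2 and Pmaip1 (NOXA) fell by 4.16-fold and 3.56-fold (adjusted p = 9.5e-06 and 0.0015), whereas cyclin Ccng1 rose (1.42 ± 0.17, adjusted p = 2.8e-07), as did Cdkn1a. Of 36 apoptosis and necroptosis genes, 10 were called higher (27.8%) and 11 lower (30.6%), close to the shares of all genes. The survival genes Bcl2, Mcl1 and Birc2 fell by 4.06-fold, 3.02-fold and 3.67-fold (adjusted p = 7.1e-07, 3.1e-06 and 6.9e-09), and gasdermin D (Gsdmd) fell by 3.67-fold (adjusted p = 4.1e-09). The pro-apoptotic Hrk was at least 2.91-fold higher (adjusted p = 5.1e-09). Under normexp background correction its difference was 0.51 on the log2 scale in place of 3.73, still called (adjusted p = 0.043).

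Of 20 complement genes, 8 were called higher (40%) and 1 lower (5%) (all genes 24.1% and 26.2%). C4b rose by 4.61-fold (adjusted p = 7.8e-05) and the regulator Cfi, above background on 3 day 1 arrays, with a difference of 2.32 ± 0.41 on the log2 scale (adjusted p = 4.9e-05). Among 17 injury markers, 5 were called higher (29.4%) and 4 lower (23.5%), near the shares of all genes, or 3 higher and 4 lower without MC822 and MC823. Cd44, a hyaluronan receptor of activated epithelium, had 0.56, 0.52, 1.11 and 0.22 in day 4 podocytes, against -2.59, -3.12, -3.03 and -1.59 in day 1 podocytes (3.18 ± 0.29, adjusted p = 3.3e-09), and galectin-3 (Lgals3) rose by 3.50-fold (adjusted p = 6.6e-05). Annexin A3 (Anxa3) fell by 5.39-fold, the TWEAK receptor (Tnfrsf12a) by 3.89-fold and lipocalin-2 (Lcn2) by 2.20-fold (adjusted p = 1.3e-11, 2.5e-05 and 0.00021).

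Markers of other cells were called higher more often than lower, though most were not called. Of 20 endothelial markers, 11 were called higher (55%) and 0 lower (all genes 24.1% and 26.2%), with a median difference of 1.78, and all 20 differences were above 0; without MC822 and MC823 it was 3 higher and 0 lower, with a median of 0.31. Robo4 had 2.12, 1.80, 2.05 and 2.19 in day 4 podocytes, against -1.87, -3.42, -2.75 and -0.05 in day 1 podocytes (4.06 ± 0.74, adjusted p = 7.2e-05), and Esam rose by 6.08-fold (adjusted p = 0.0006). Flt1, the VEGF receptor, had -0.31, -1.09, 2.15 and 2.68 in day 4 podocytes, against -0.50, -1.94, -2.64 and 1.14 in day 1 podocytes (1.84 ± 0.74, adjusted p = 0.043), and lost its call without any 1 of MC822, MC823, MC541 or MC542 (1.23 to 1.52, adjusted p from 0.12 to 0.19). Of 20 proximal tubule markers, 6 were called higher (30%) and 1 lower (5%), and without MC822 and MC823 it was 4 higher and 1 lower, with a median of 0.17 in place of 1.41. Kap, an androgen-regulated tubular protein, had -1.81, -2.89, -0.30 and 7.11 in day 4 podocytes, against -1.46, 1.37, -1.41 and -3.59 in day 1 podocytes (1.80 ± 1.89, adjusted p = 0.46), so that 1 mouse, MC823, stood apart. Hnf4a, a factor of tubule and liver, had 0.60, 0.36, -0.01 and 1.55 in day 4 podocytes, against -5.98, -3.25, -4.36 and -6.63 in day 1 podocytes, of which 2 were above background (5.68 ± 1.00, adjusted p = 4.6e-05); its rise was in all 4 day 4 mice. Of 15 myeloid markers, 4 were called higher (26.7%) and 1 lower (6.67%), and it was 2 higher and 1 lower without MC822 and MC823. Csf1r, the receptor of colony-stimulating factor, fell by 8.95-fold (adjusted p = 3.7e-09), and C1qa, above background on 1 day 1 array, differed by 5.51 ± 0.46 (adjusted p = 9.2e-10). These were the lowest and highest differences of the myeloid list, whose median was 0.38, and 10 of the 15 were not called. The means of Csf1r were 3.35 on day 4, 6.51 on day 1 and 3.36 on day 0. In EGFP cells they were 3.05 on day 4 and 3.11 on day 1. Of 9 lymphocyte markers, 5 were called higher (55.6%) and 0 lower, with Cd3d at least 22.3-fold (adjusted p = 5.7e-05). Under normexp background correction the difference of Cd3d was 1.87 on the log2 scale in place of 6.15, still called. Of 17 mesangial and smooth muscle markers, 4 were called higher (23.5%) and 2 lower (11.8%), or 2 higher and 1 lower without MC822 and MC823. Of 12 parietal markers, 5 were called higher (41.7%) and 1 lower (8.33%), or 3 higher and 2 lower without them. Of 13 distal nephron markers, 4 were called higher (30.8%) and 0 lower, and of 5 erythrocyte and platelet markers, 1 was called higher (20%) and 0 lower. Over the 9 lymphocyte markers the mean level ran from -1.55 to -0.70 in day 4 podocytes, against -3.91 to -2.67 in day 1 podocytes, without overlap. Of 19 defining markers of these cell types that were tested, all 19 were well above background on at least 1 day 4 array and 18 on at least 1 day 1 array. The part of such cells in the gene results above was not tested.

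**Figure D4:**
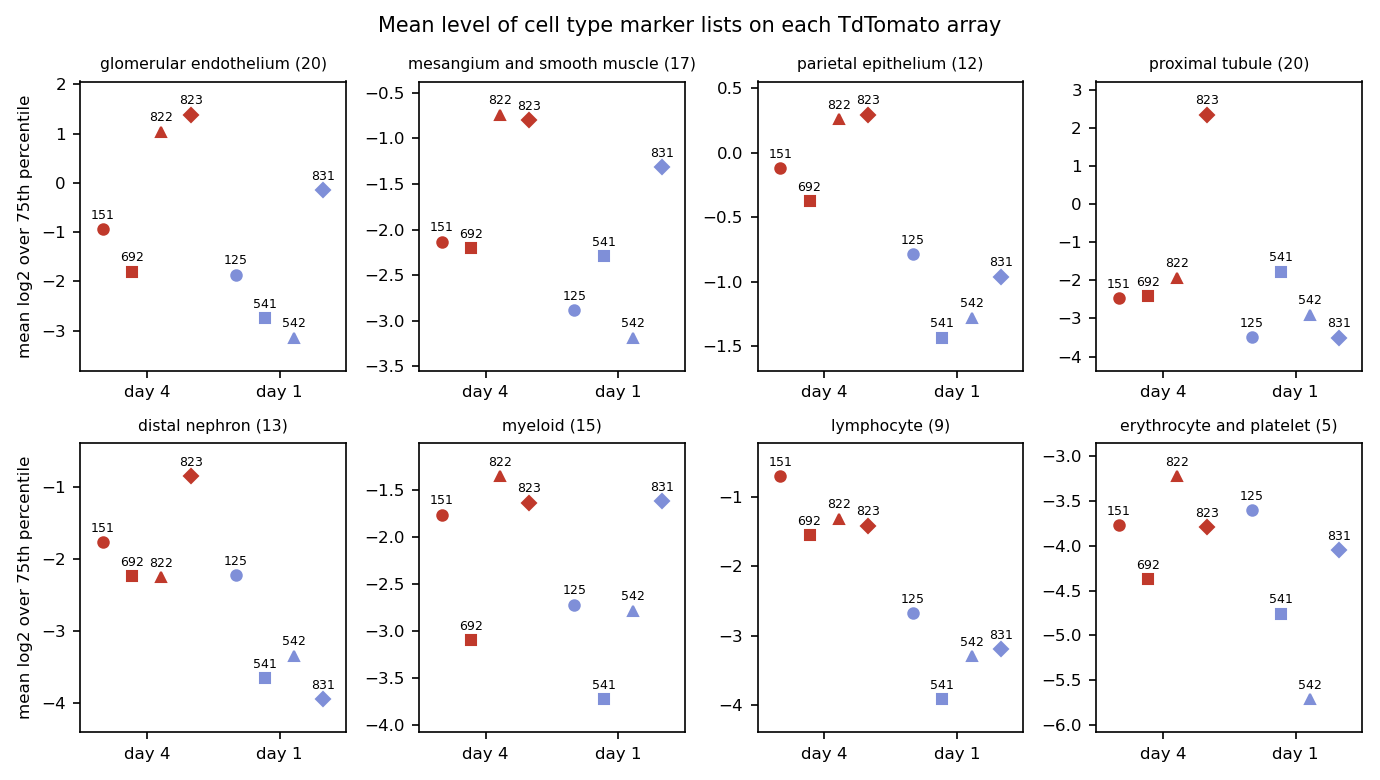
Mean level of each list of cell type markers on each TdTomato array (y axis, log2 signal over the 75th percentile, a scale of its own for each list), day 4 mice in red at the left and day 1 mice in blue at the right; numbers beside the points are the mouse numbers and numbers in the titles the markers measured. MC822 and MC823 lie highest for endothelium on day 4, MC831 on day 1, and MC823 lies alone at 2.34 for the proximal tubule.

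The last comparison set the difference between the days in TdTomato podocytes against that in EGFP podocytes of the same animals, to ask whether cells that lack the toxin's receptor differed in the same way. The difference between the populations was called for 2107 genes in the positive direction, more rise or less fall in TdTomato cells, and for 3159 in the negative direction, which is 13.5% and 20.2% of genes and 33.7% together. Since both colours came from 1 mouse, the mouse was also entered as a replicate block: as a random block it gave 3438 and 4773 genes, and as a fixed block 2456 and 3895. Quantile normalization split the calls as 2507 and 2694. Without the day 4 arrays of MC822 and MC823 they were 1728 and 2976. Thbs4 rose in both populations: the EGFP arrays read 1.61, 1.30, 1.32 and 1.20 on day 4, against -6.45, -7.25 and -6.92 on day 1, a difference of 8.23 ± 0.41 (adjusted p = 4.3e-12), and the difference between populations was 5.93 ± 0.56 (adjusted p = 3.5e-08). Birc5 also rose in EGFP cells, by 2.55 ± 0.29 (adjusted p = 3e-05), with a difference between populations of 2.06 ± 0.40 (adjusted p = 0.00032). Nusap1 had an EGFP difference of -0.03 ± 0.36 (adjusted p = 1.0), and the difference between populations was 6.07 ± 0.49 (adjusted p = 3.7e-09).

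The genes with the largest difference between populations included Flt3, a cytokine receptor of blood progenitors. On TdTomato arrays Flt3 read 0.70, 1.17, 1.31 and 0.62 on day 4, against -5.59, -7.68, -6.06 and -5.01 on day 1, where 1 array was above background, and on EGFP arrays -5.61, -5.66, -5.18 and -4.91 on day 4, against -5.13, -2.13 and -2.45 on day 1 (difference between populations 9.14 ± 0.80, adjusted p = 1.3e-08). Spink2, Pmch and Svs6 had differences of 8.60 ± 0.47, 8.03 ± 0.46 and 7.93 ± 0.44 (adjusted p = 1.5e-11, 2.8e-11 and 1.5e-11). Sftpc, a surfactant protein of the lung, had 7.77 ± 0.75, Baalc 7.60 ± 0.61 and Ahrr, a repressor of the aryl hydrocarbon receptor, 7.42 ± 0.94 (adjusted p = 5.2e-08, 3.7e-09 and 1.9e-06). On EGFP arrays Ahrr read -5.95, -7.01, -6.46 and -6.50 on day 4, against -6.57, -2.70 and -6.31 on day 1. There 1 array, MC541, stood apart, and the EGFP difference of -1.28 ± 0.69 was not called (adjusted p = 0.79). The TdTomato difference of Ahrr was 6.14. Of the 287 genes that appeared on the day 4 TdTomato arrays, 241 had no day 4 EGFP array well above background and 2 had all 4. These genes were chosen for their signal on the TdTomato arrays, so low EGFP signal is partly built in. The same share over all genes was not counted. In the negative direction, the difference between populations was -4.84 ± 0.56 for Fosl2, -3.02 ± 0.53 for Nfkb1, -2.24 ± 0.35 for Pes1, -5.54 ± 0.46 for Mvk and -4.78 ± 0.44 for Itga5 (adjusted p = 5.9e-07, 9.9e-05, 2.8e-05, 6e-09 and 2.5e-08). For the podocyte genes it was -1.08 ± 0.25 for Nphs1 and -1.08 ± 0.20 for Synpo (adjusted p = 0.0015 and 0.00022), and that of Synpo lost the call over the mean of its probes (-0.39, adjusted p = 0.32). For Edn1, with an EGFP difference of 2.0 ± 0.50 (adjusted p = 0.11), it was 1.15 ± 0.67 (adjusted p = 0.2), and it was called with the mouse as a random replicate block (1.26, adjusted p = 0.018) and with normexp correction (2.45, adjusted p = 4.3e-06). Notch1 had an EGFP difference of -1.40 ± 0.46 (adjusted p = 0.38), and the difference between populations was 4.23 ± 0.62 (adjusted p = 1.3e-05).

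**Figure D5:**
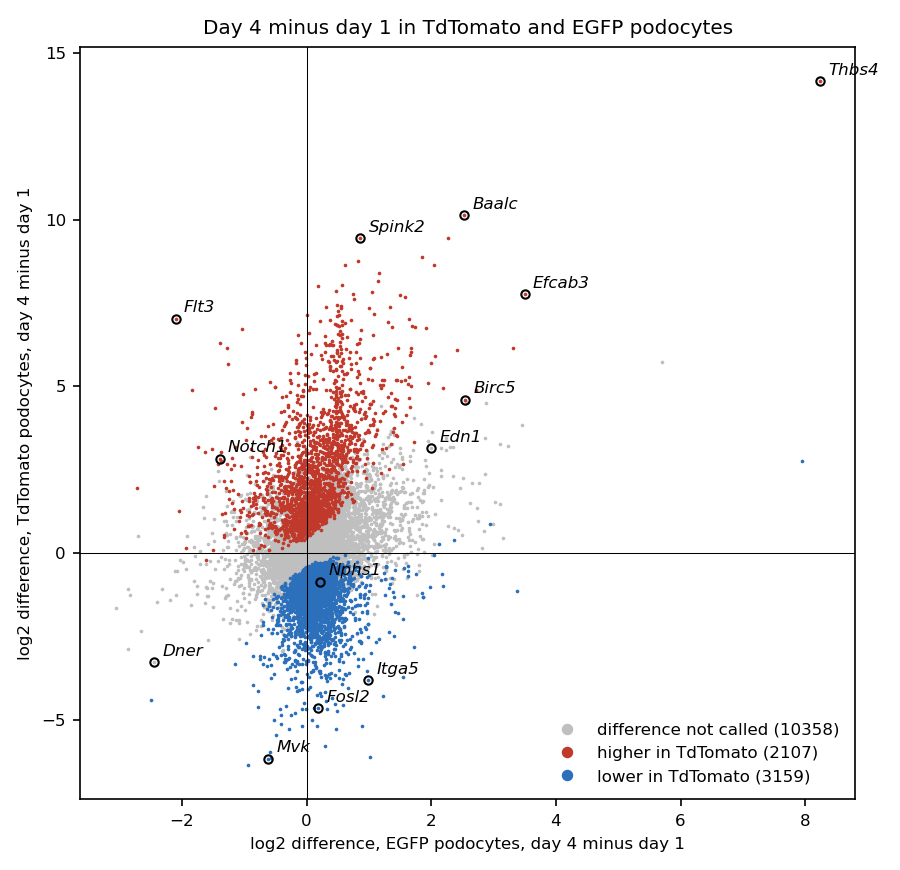
Log2 difference of day 4 minus day 1 in TdTomato podocytes (y axis) against the same difference in EGFP podocytes (x axis) for 15624 genes. Red points are the 2107 genes whose difference between populations was called positive and blue points the 3159 called negative; the coloured genes spread much further along the y axis than along the x axis, and Thbs4 lies highest and furthest right.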

How the data were processed

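RNA of sorted podocytes was hybridised to 1-colour Agilent mouse arrays, 1 array for each mouse and colour. The deposited files hold background-corrected signal intensity per spot, written by Feature Extraction (version 11.5.1.1 per the submitters' processing notes); the deposited series matrix holds log2 values by the authors whose scaling is not stated, with column medians from -3.18 to -2.33, and was used as an alternative only. Each processed intensity was divided by the 75th percentile of its array over non-control spots and taken to log2. Of 55681 probes, 26582 had 1 symbol through RefSeq accessions (GRCm38.p6), 29099 had none and 0 had several. Probes well above background on at least 3 of 29 arrays were kept (38180), and the brightest of a gene stands for it, which left 15624 genes. A limma 3.58.1 fit (R 4.3.3) of 8 group means over 29 arrays gave Benjamini-Hochberg adjusted p-values; the fitting script was tested on simulated data. "At least N-fold" sets the mean of the bright group against the detection limit, or the dim probe's own signal where higher, of arrays on which the probe was not well above background. The limit of an array is the signal of its dimmest probe well above background, so these bounds belong to the processed signal only. The mean signal was not used here, so the normexp alternative took median signal and median background with an offset of 50. The days hold 4 separate mice each and are not paired; EGFP and TdTomato arrays are paired by mouse number, which bears on the difference between populations only. Genes named are Birc5, Thbs4, Gnl3, Nphs1, Podxl, Synpo, Wt1, Des and Eef2, and those chosen by size of difference, over all genes, between populations or within a list, or by level within a list; 199 of the 495 that this rule admits are described, 3 outside it are marked, and a few are not reported here. The largest over all genes and between populations were taken only from called genes whose day 4 and day 1 TdTomato arrays did not overlap. They also had to be well above background on all 4 arrays of the higher day. Members, lists and this rule were chosen with earlier results of these data known. The alternatives are given in the closing section.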

Additional observations from a re-analysis of the deposited data

Results flagged for a closer look

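Among the named genes, 404 groups of 4 arrays were looked at for 1 array far from the other 3, and 19 had one; chance alone gives about 1 in 20, or 20.2. In day 4 podocytes MC692 stood apart for Ccnd3 (level 3.86), Eif4a2 (4.46) and Klf10 (2.75). MC151 stood apart on day 4 for Eif5a (3.37), Svs3a (1.49) and Thbs4 (8.33). MC822 stood apart on day 4 for Ifit3 (1.81), Kif22 (0.44), Lif (-2.29), Nfkb1 (-0.86), Thbs1 (3.59) and Tnf (-1.54). In day 1 podocytes MC541 stood apart for Fas (1.98), Foxd1 (3.14), Gars (4.37), Isg15 (-0.074), Mcl1 (6.82) and Ptpro (6.84), and MC125 for Pmvk (4.70).

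The difference of day 4 minus day 1 was larger or smaller in TdTomato than in EGFP podocytes, by the test of that difference, for 5266 genes. Other named genes passed it too; among those whose value is given above, the TdTomato minus EGFP value was positive for Flt3 (9.14), Spink2 (8.60), Pmch (8.03), Svs6 (7.93), Sftpc (7.77), Baalc (7.60), Ahrr (7.42), Nusap1 (6.07), Thbs4 (5.93), Notch1 (4.23) and Birc5 (2.06). It was negative for Mvk (-5.54), Fosl2 (-4.84), Itga5 (-4.78), Nfkb1 (-3.02), Pes1 (-2.24), Synpo (-1.08) and Nphs1 (-1.08).

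Probes with no gene name were left out of the comparisons above. Of 17734 such probes above the background filter, 2309 were called higher on day 4 and 1907 lower, 23.8% in all, with a median difference of -0.02.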

How the results depend on the processing

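The calls in TdTomato podocytes, 3770 higher and 4101 lower, stayed within 1.5 times under every alternative run: 2901 to 4489 higher and 3236 to 5001 lower. The lowest counts were those without MC822 and MC823 (higher) and with only the compared groups in the fit (lower), and the highest those with slide as a block. Quantile normalization gave 4048 and 3828. With no filter on dim probes the median of all genes moved to 0.19. Leaving out single arrays gave 3412 to 3824 higher and 3742 to 4102 lower. The 5266 genes that differed between populations became 8211 with the mouse as a random replicate block; leaving out single arrays gave 1816 to 2272 positive and 2682 to 3381 negative. Of 210 called values of named genes none changed sign, and 205 of 221 values kept direction and call throughout. The "at least N-fold" bounds rest on the processed signal. They did not hold under normexp correction for Kif23 and those genes listed next that were given one. Thbs4 is not in that list, and whether its bound held under normexp correction is not given here. Under that correction 57 of 192 called differences between days shrank by over 1.5 times and kept their call except Kif23. The others were Actc1, Ahrr, Baalc, C1qa, C4b, Ccl4, Ccnd2, Cd3d, Cd44, Cdt1, Cfi, Cnn1, Col16a1, Csf3, Dll1, Esr1, Fbln5, Flt3, Gbp3, Gclm, Grp, Hamp, Hnf4a, Hrk, Il6, Itgb6, Kdelr3, Kif22, Lif, Lmnb1, Mcm3, Mcm5, Mmp13, Mmp9, Mthfd2, Notch3, Nusap1, Parp14, Pgf, Plau, Pmch, Prc1, Pstpip1, Ripk4, S100a14, Saa3, Sftpc, Shmt2, Spink2, Stra8, Svs3a, Svs5, Svs6, Thbs3, Tk1 and Tnf. Signs turned for genes that were not called. Leaving out single arrays gave -0.24 to 0.12 for Des (positive without MC831 or MC151), -0.24 to 0.032 for Gnl3 (MC822 or MC823), -0.36 to 0.093 for Jun (MC125) and -0.40 to 2.94 for Kap (negative without MC823). Without both MC822 and MC823, the values were 0.24 for Gnl3, 0.0042 for Jun and -1.08 for Kap. Quantile normalization gave 0.26 for Gnl3, and the mean of probes 0.096 for Vegfa. The cause was not tested. With 4 mice a day, differences in probes near background are the least certain.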
